A study of Mus musculus with 12 samples.

Results

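The genes of MHC class I antigen presentation were examined in adipose tissue macrophages (ATMs) of WT and miR-146a-/- mice on normal chow diet (NCD) and on high-fat diet (HFD). They were 10 genes chosen by name from the 15393 in the expression table: the heavy chains H2-K1 and H2-D1, the light chain B2m, the peptide transporter genes Tap1 and Tap2, the loading factor Tapbp, the immunoproteasome subunits Psmb8, Psmb9 and Psmb10, and the transactivator Nlrc5. All 10 were measured in every library and were among the 12119 genes tested. The cells had been sorted from visceral fat as CD45+, CD11b+ and F4/80+, and each of the 12 libraries held the RNA of cells pooled from 3 mice. There were 4 groups of 3 libraries, WT NCD, miR-146a-/- NCD, WT HFD and miR-146a-/- HFD, all from C57BL/6 mice that were 20 weeks old and had received the diet for 14 weeks, starting at the age of 6 weeks. The mutants lack miR-146a in every cell and not only in macrophages. No row for the miRNA or its precursor was used, so the deletion was not analysed here.

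MHC class I molecules carry peptides from inside the cell to its surface, where CD8 T cells read them. The proteasome cuts proteins into peptides, a transporter made of the Tap1 and Tap2 products moves these into the endoplasmic reticulum, and the tapasin encoded by Tapbp helps to load them onto a heavy chain paired with beta-2 microglobulin. Interferon gamma is known to induce most of these genes, in part through Nlrc5, which joins a protein complex on class I promoters, and miR-146a is known to restrain NF-kB signalling by targeting Traf6 and Irak1.

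The members lie in 3 parts of the genome of the files (mm10, which is GRCm38). Of the 10, 7 are in the MHC region of chromosome 17, and within it Psmb9, Tap1, Psmb8 and Tap2 form a cluster of 4 neighbours at chr17:34181988-34216321. H2-K1 (ENSMUSG00000061232) is at chr17:33996017-34000333, H2-D1 (ENSMUSG00000073411) at chr17:35262730-35267499 and Tapbp (ENSMUSG00000024308) at chr17:33915899-33929288. B2m (ENSMUSG00000060802) is at chr2:122147686-122153083. Psmb10 (ENSMUSG00000031897) is at chr8:105935728-105938392, and Nlrc5 (ENSMUSG00000074151) at chr8:94472763-94527272.

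Promoter sequence is shown for H2-K1, H2-D1 and B2m, whose products form the class I molecule and whose levels moved together from library to library. RefSeq (GRCm38.p6) windows reaching 250 bases before a start site were given for 8 of the 10 members, all but Tap2 and Nlrc5, and were searched on both strands for 6 short motifs. These were an interferon-stimulated response element (ISRE, which reads TTTC, any 2 bases and TTTC), the shorter form found in class I promoters (TTTCNNTTC), an NF-kB-type motif (GGG, any 2 bases, TT, any base and CC), a GAS motif (TTCNNNGAA), the core of a cAMP response element (CRE, TGACG) and the CCAAT box. In H2-K1 and H2-D1, 11 bases lay between the NF-kB-type motif and the class I ISRE, and 40 bases between that ISRE and the CRE core. The stretches of 30 bases below run from the NF-kB-type motif through the class I ISRE, both in capitals. They are at chr17:34000429-34000458 on the minus strand for H2-K1 and at chr17:35262923-35262952 on the plus strand for H2-D1, where GENCODE annotates a 5′ UTR.
H2-K1: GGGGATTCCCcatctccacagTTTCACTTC
H2-D1: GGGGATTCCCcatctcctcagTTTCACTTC
They differ at 1 of 30 bases, A18T, counted from 1 at the 5′ end with the H2-K1 base first, which lies between the motifs. The longer stretches below hold every match of the 6 motifs in the windows of H2-K1 (chr17:34000349-34000472, minus strand) and B2m (chr2:122147537-122147685, plus strand) between these coordinates, in capitals.
H2-K1: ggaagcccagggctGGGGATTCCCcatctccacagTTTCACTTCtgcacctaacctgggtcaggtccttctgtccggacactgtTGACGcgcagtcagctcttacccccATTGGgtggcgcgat
B2m: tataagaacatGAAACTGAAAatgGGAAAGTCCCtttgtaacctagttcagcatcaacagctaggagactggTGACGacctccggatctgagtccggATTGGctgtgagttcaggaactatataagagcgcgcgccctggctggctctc
From 5′ to 3′ the capitals in H2-K1 mark the NF-kB-type motif, the class I ISRE, the CRE core and a CCAAT box read from the other strand. In B2m they mark an ISRE and an NF-kB-type motif, both on the other strand, then the CRE core and again a CCAAT box on the other strand. No match in these stretches overlapped another.

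The other members held fewer of these motifs. The CRE core was found in 5 of the 8 members with a window (H2-K1, H2-D1, B2m, Tap1 and Psmb9), but Tap1 and Psmb9 are transcribed away from each other, their windows share 225 bases, and their CRE core is the same 5 bases. A CCAAT box was found in 6, Psmb8 had a GAS motif, and Psmb10 had no match. Among 32851 promoter windows of this kind, 2.98% held the ISRE, 6.31% the class I ISRE, 4.11% the NF-kB-type motif, 7.02% the GAS motif, 17.8% the CRE core and 33.8% the CCAAT box. These matches are a description of the letters and show no binding.

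The expression of the members spanned a wide range, from B2m, H2-D1 and H2-K1 among the highest genes to Nlrc5, which ranked 4579th of 12119. On the FPKM scale, which is per gene length, B2m had a mean level of 2057 over the 12 libraries and ranked 24th of the 12119 genes tested, H2-D1 had 831 and H2-K1 497. Tapbp (67.4), Psmb8 (63.1) and Psmb10 (59.3) followed with ranges that overlapped from library to library. Tap1 (21.8), Tap2 (18.3), Psmb9 (14.1) and Nlrc5 (11.6) came next, and their ranges overlapped too. The reads counted to genes numbered 9992178 to 11552202 per library, with at least 460 reads of each member in each library and up to 27431 for H2-D1. Some of these reads could come from other genes. Of all stretches of 50 bases in the transcripts of H2-K1 and H2-D1, 9.63% and 12.8% also occur in another gene, most often H2-Q10 and H2-Q1, against 0% for B2m, Psmb9, Psmb10 and Nlrc5 and at most 2.87% for the rest. Tapbp also shares 3421 bases of its span with Zbtb22 on the same strand, so Tapbp reads may include those of Zbtb22.

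**Figure D1:**
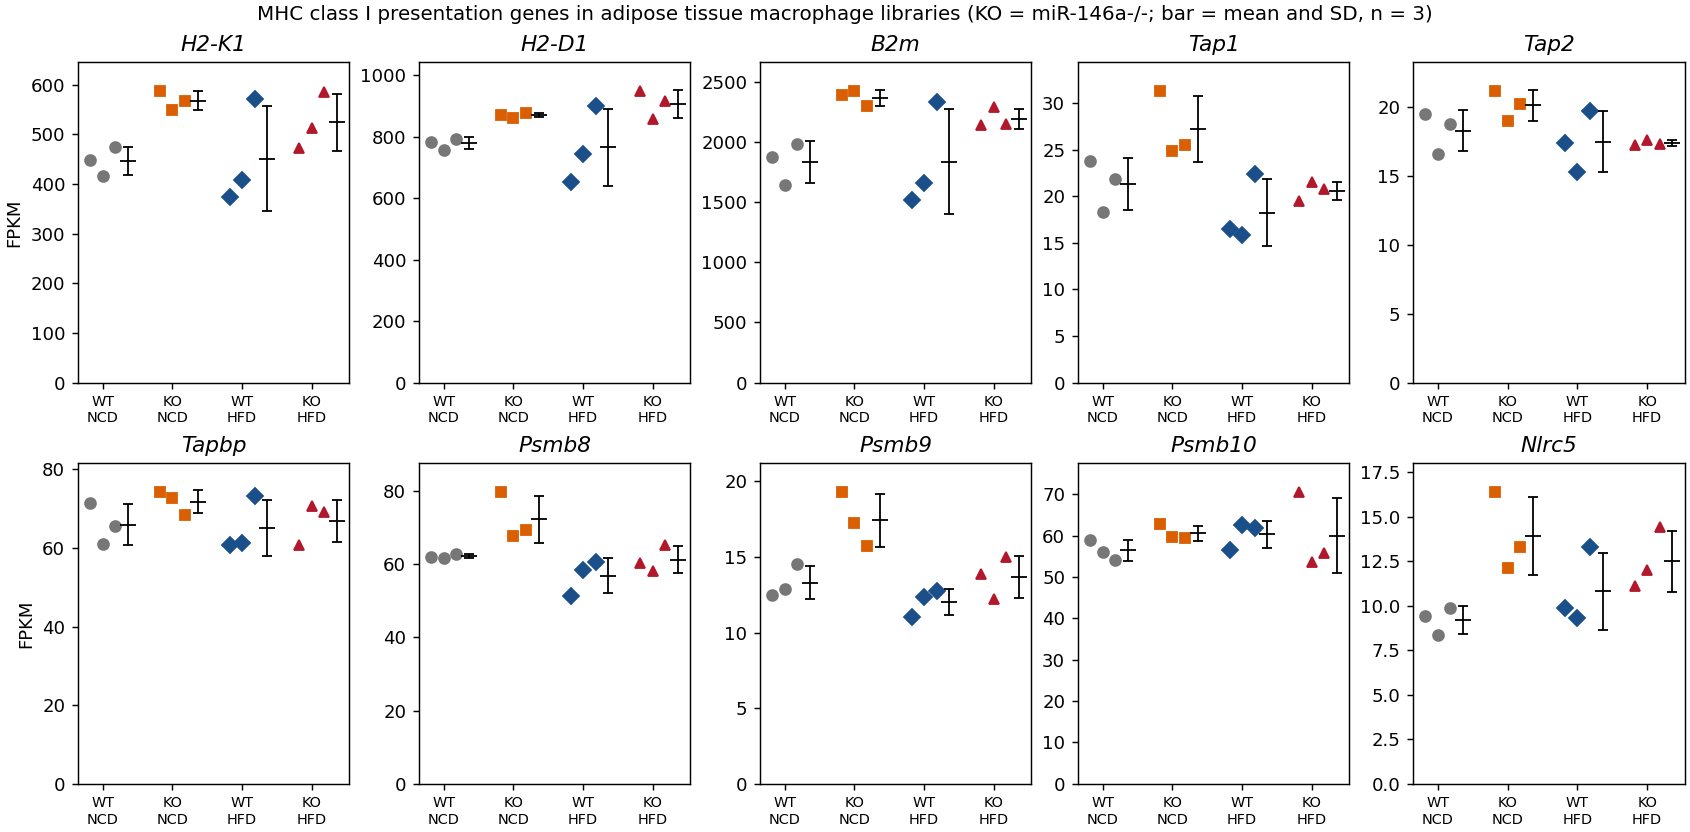
Level of each class I presentation gene in FPKM (vertical axis, from 0, a scale per panel) in the 12 ATM libraries, 1 point per library, with the mean and SD of each group of 3 libraries as a black bar. In 8 of 10 panels all miR-146a-/- NCD points lie above all WT NCD points, and on HFD the groups overlap in every panel.

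On NCD, all 10 class I presentation genes had a higher mean in miR-146a-/- than in WT ATMs, by 0.10 to 0.54 on the log2 scale, and none passed the test across all genes. The median of their log2 fold changes was 0.27, and that of all 12119 genes was 0.02. It was 0.20 without miR-146a-/- NCD replicate 1, the highest library of its group for 8 of the 10 members. Without WT NCD replicate 2, the lowest of its group for 8, it was 0.22, and without miR-146a-/- NCD replicate 2 it was 0.30. With limma on log2(FPKM + 1) and Benjamini-Hochberg adjustment over all genes, the adjusted p-values of the members were 0.447 to 0.941, and 0.124% of all genes were called, which means an adjusted p under 0.05. Before adjustment 6 of the 10 members had p under 0.05, against 6.68% of all genes, and limma voom on the recovered reads called 0 members, also with 6 under 0.05. In 8 of the 10 members every miR-146a-/- library was above every WT library, which held for 10.4% of all genes. The members are not independent of each other, since their levels moved together across libraries.

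The heavy and light chains of the class I molecule were measured as RNA. H2-K1 was at 449, 417 and 474 FPKM in the WT NCD libraries and at 587, 549.7 and 568 in the miR-146a-/- NCD libraries. B2m was at 1876, 1642 and 1985 FPKM in WT and at 2387, 2421 and 2294 in miR-146a-/- ATMs. H2-D1 was at 785, 757 and 794 FPKM and at 872, 863 and 878. In none of these 3 genes did the NCD groups overlap. The mean of H2-K1 was 447 ± 28.6 FPKM (SD, n = 3 libraries) in WT and 568 ± 18.6 in miR-146a-/- ATMs, a log2 fold change of 0.35 (95% confidence interval 0.02 to 0.67, limma adjusted p = 0.737). B2m had a log2 fold change of 0.37 (0.04 to 0.70, limma adjusted p = 0.724). H2-D1 had the smallest of the 3, 0.16, with an interval that included 0 (-0.09 to 0.41).

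Nlrc5, the class I transactivator, had the largest difference of the members. Its level was 9.44, 8.34 and 9.88 FPKM in the WT NCD libraries and 16.4, 12.1 and 13.3 in the miR-146a-/- NCD libraries. The log2 fold change was 0.54 (95% confidence interval 0.21 to 0.87, limma adjusted p = 0.447), and the means were 9.22 ± 0.79 and 13.9 ± 2.19 FPKM (SD, n = 3). The groups did not overlap, and the highest library was miR-146a-/- NCD replicate 1.

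The genes for making and moving peptides differed less evenly. Psmb9, the immunoproteasome subunit that takes the place of Psmb6, was at 12.5, 12.9 and 14.5 FPKM in WT NCD and at 19.3, 17.2 and 15.7 in miR-146a-/- NCD, with a log2 fold change of 0.36 (0.14 to 0.59, limma adjusted p = 0.447). Psmb8, which takes the place of Psmb5, was at 62.1, 61.8 and 62.7 FPKM and at 79.6, 67.8 and 69.3, a log2 fold change of 0.21 (0.01 to 0.41). Tap1 was at 23.8, 18.3 and 21.9 FPKM and at 31.3, 24.8 and 25.5, a log2 fold change of 0.34 (0.03 to 0.65). None of these 3 genes overlapped between the NCD groups. For Tap2, its partner in the transporter, and for Tapbp the groups overlapped, with log2 fold changes of 0.13 and 0.12. Psmb10, which takes the place of Psmb7, was at 54.1 to 59.0 FPKM in WT and 59.4 to 62.7 in miR-146a-/- ATMs, with the smallest log2 fold change of the members (0.10, interval -0.12 to 0.32).

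**Figure D2:**
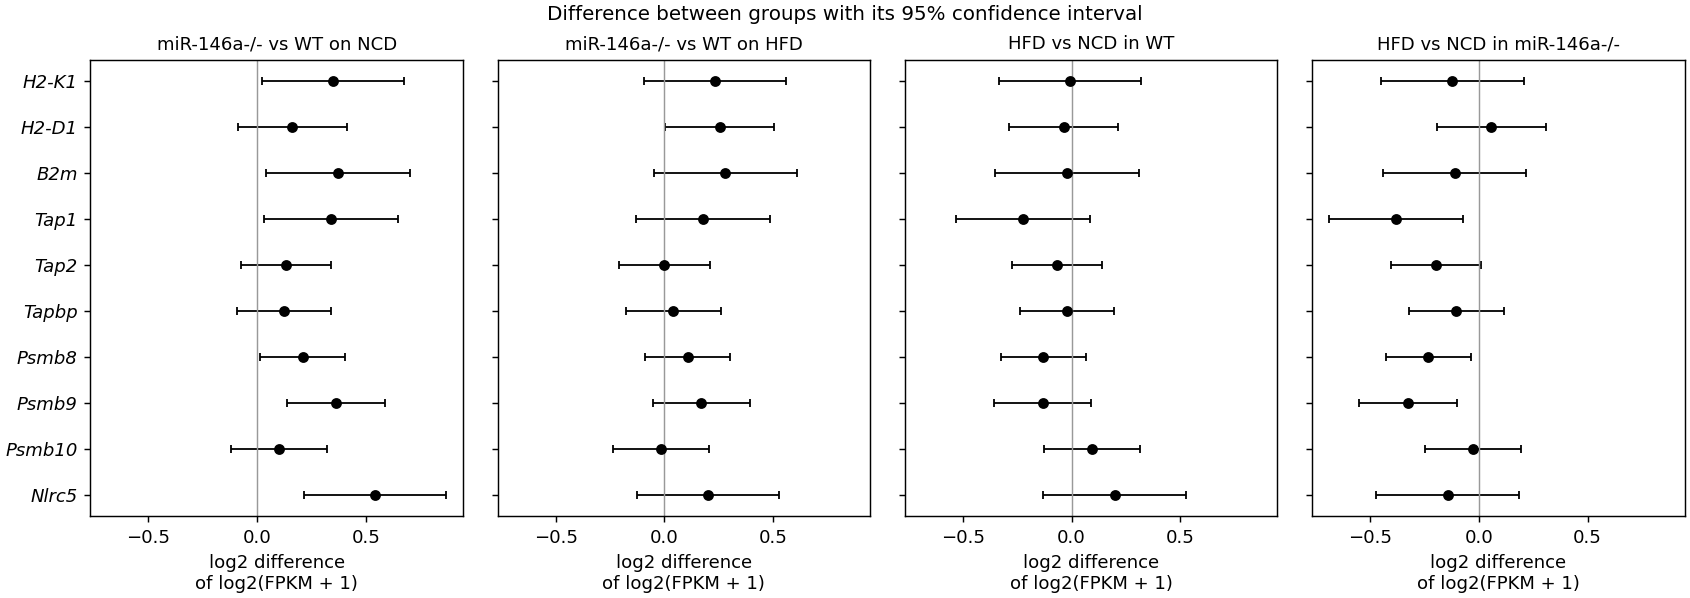
Log2 difference of log2(FPKM + 1) between groups (horizontal axis) for each gene, with points for the estimate and bars for its 95% confidence interval from limma, unadjusted for multiple genes. For miR-146a-/- against WT on NCD all 10 points lie above 0, from 0.10 to 0.54, and for HFD against NCD in miR-146a-/- ATMs 9 lie below 0.

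On HFD, 8 of the 10 members had a higher estimate in miR-146a-/- than in WT ATMs, and none passed the test. The log2 fold changes ran from -0.02 (Psmb10) to 0.28 (B2m) with a median of 0.18, beside -0.02 for all genes. Limma called 0 of the 10 members and 0.627% of all genes, limma voom called 0 members, and 1 member had an unadjusted p under 0.05 with each tool, against 17.5% of all genes with limma. That member was H2-D1 in the limma fit, with a log2 fold change of 0.26 (95% confidence interval 0.004 to 0.51, adjusted p = 0.278). All members overlapped between these groups.

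A single WT library stood apart on HFD. WT HFD replicate 3 was the highest of its group for 9 of the 10 members, by a median of 0.32 on the log2 scale over the other libraries of the group. For B2m the WT HFD libraries had 1519.8, 1654 and 2330.3 FPKM, and the miR-146a-/- HFD libraries had 2140.4, 2286 and 2149. For H2-K1 they had 375, 407 and 572 FPKM, against 473, 513 and 586, and for H2-D1 652, 745 and 901, against 948, 857 and 916. The first 2 WT HFD libraries were thus below every miR-146a-/- HFD library in these genes, and the last was inside or above their range. Without WT HFD replicate 3, which was left out after the data were seen, 5 members (H2-K1, H2-D1, B2m, Tap1 and Nlrc5) were higher in miR-146a-/- ATMs with no overlap, against 12.5% of all genes. Without miR-146a-/- HFD replicate 1 this held for 0 members and 13.9% of all genes. Without WT HFD replicate 3 the median log2 fold change was 0.27, with all 10 estimates above 0 and no member called by limma (H2-K1 0.42, adjusted p = 0.153; B2m 0.47, adjusted p = 0.123). The median was 0.11 without WT HFD replicate 1, 0.12 without WT HFD replicate 2 and 0.10 without miR-146a-/- HFD replicate 3.

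The transactivator, transporter and peptide-supply genes overlapped between the HFD groups as well. Nlrc5 was at 9.87, 9.29 and 13.3 FPKM in WT HFD and 11.1, 11.99 and 14.4 in miR-146a-/- HFD. Tap1 was at 16.5, 15.9 and 22.4 FPKM and at 19.5, 21.5 and 20.7. Tap2 was at 17.5 ± 2.23 FPKM in WT and 17.4 ± 0.19 in miR-146a-/- ATMs (SD, n = 3), a log2 difference with an interval of -0.21 to 0.21. Psmb8, Psmb9 and Tapbp had log2 fold changes of 0.11, 0.17 and 0.04. The sign for Tap2 and Psmb10 turned with median-ratio scaling and that for Tapbp with quantile normalization.

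The effect of genotype was not shown to differ between diets for any member. The interaction was below 0 for 9 of 10 members, with a median of -0.12, and H2-D1 was the exception (0.09). This moved with single libraries and settings: the median was -0.027 with 4 of 10 above 0 without WT HFD replicate 3, -0.07 with 4 above 0 with weights for library quality, -0.05 with median-ratio scaling, -0.07 without WT NCD replicate 2, and -0.19 with 0 above 0 without WT HFD replicate 1. Limma called 0 members and 0% of all genes, 0 members had an unadjusted p under 0.05 with limma or limma voom, and 12.2% of all genes had one with limma. The largest was that of Nlrc5, -0.34 with an interval of -0.80 to 0.12 (limma adjusted p = 0.535). Averaged over diets, all 10 members were above 0 with a median of 0.23, and 7 had an unadjusted p under 0.05, against 11.3% of all genes. Limma called 0 of them (adjusted p = 0.209 to 0.844) and 0.413% of all genes, and limma voom also called 0, with 7 under 0.05. With weights for library quality, H2-K1, B2m and Nlrc5 passed (limma adjusted p = 0.0473, 0.0333 and 0.0364, log2 fold changes 0.35, 0.41 and 0.39), in a fit that called 2.26% of all genes and gave the smallest weight to miR-146a-/- HFD replicate 1.

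In miR-146a-/- ATMs no member was called between the diets, and the lowest estimates on HFD were those of Tap1, Psmb9, Psmb8 and Tap2. In these cells 9 of 10 members were below 0 on HFD against NCD, with a median log2 fold change of -0.13, beside -0.03 for all genes. With median-ratio scaling the median was -0.07, and Psmb10 turned from -0.02 to 0.04. The median was -0.20 without miR-146a-/- HFD replicate 3. Limma called 0 members and 0.759% of all genes, and 3 members had an unadjusted p under 0.05, as with limma voom, which called 0, against 13.4% of all genes with limma. In B2m, Tap1, Tap2, Psmb8 and Psmb9, 5 of the 10 members, every HFD library was below every NCD library, which held for 11.7% of all genes. Tap1 went from 27.2 ± 3.53 to 20.6 ± 1.00 FPKM (SD, n = 3), a log2 fold change of -0.38 (95% confidence interval -0.69 to -0.07, limma adjusted p = 0.270). Psmb9 was at 13.9, 12.2 and 15.0 FPKM on HFD, below the NCD values above, a log2 fold change of -0.33 (-0.55 to -0.10, limma adjusted p = 0.194). Psmb9 passed with weights for library quality (log2 fold change -0.39, limma adjusted p = 0.0349), where 5.83% of all genes were called. The heavy chains H2-K1 and H2-D1 overlapped between diets, with -0.12 and 0.06.

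In WT ATMs no member was called between the diets. Limma called 0 members and 2.98% of all genes, and 0 members had an unadjusted p under 0.05 with limma or with limma voom, which called 0, against 19.1% of all genes with limma. The estimates ran from -0.22 (Tap1) to 0.20 (Nlrc5), with 8 of 10 below 0 and a median of -0.03. This rested on single libraries: without WT HFD replicate 1 or 2, 6 of 10 were above 0 (medians 0.049 and 0.020), and the median was -0.17 without WT HFD replicate 3, -0.09 without WT NCD replicate 2, -0.012 without WT NCD replicate 1 and -0.13 with weights for library quality. Psmb8 was the single member whose groups did not overlap, at 51.4, 58.5 and 60.7 FPKM on HFD, all below the NCD values, and 15.7% of all genes were lower in this way. The intervals for H2-K1 (-0.34 to 0.32) and B2m (-0.35 to 0.31) were wide, and WT HFD replicate 3 stood above the others of its group. Both genotype comparisons and both diet comparisons share libraries, so these values are not independent.

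Averaged over genotypes, 7 of 10 members were below 0 on HFD, with a median of -0.07. The median was -0.16 without WT HFD replicate 3, -0.022 and -0.039 without WT HFD replicates 1 and 2, -0.043 without miR-146a-/- HFD replicate 1, -0.11 with weights for library quality and -0.033 with median-ratio scaling. Limma called 0 of the members and 4.55% of all genes, and 3 members had an unadjusted p under 0.05, as with limma voom, which called 0, against 19.0% of all genes with limma. The 3 were Tap1 (-0.30, standard error 0.10, limma adjusted p = 0.122), Psmb8 (-0.18, 0.06, limma adjusted p = 0.143) and Psmb9 (-0.23, 0.07, limma adjusted p = 0.107), which are neighbours on chromosome 17. Tap1 and Psmb9 also share 212 bases on opposite strands. With weights for library quality all 3 passed (limma adjusted p = 0.0334, 0.0201 and 0.0127), as did 16.3% of all genes. Without WT HFD replicate 3 Tap1 passed (-0.38, limma adjusted p = 0.0437), as did 3.38% of all genes.

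**Figure D3:**
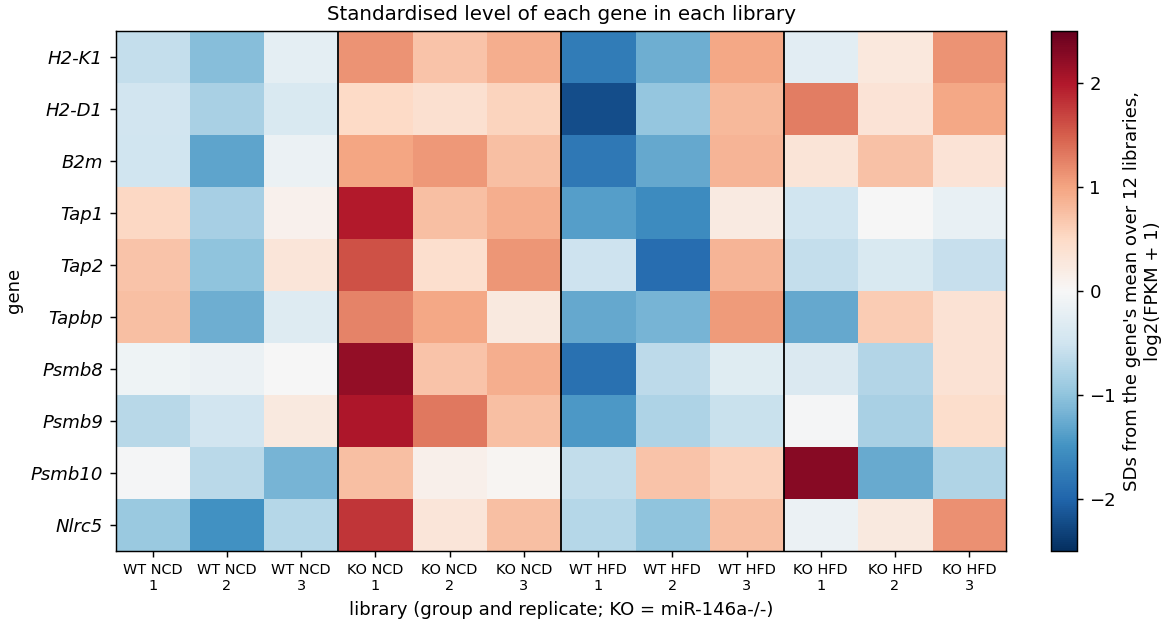
Level of each class I presentation gene in each library as SDs from the mean of that gene over the 12 libraries, on log2(FPKM + 1) (red above, blue below). Most genes move together within a library: WT HFD replicate 3 is above the other WT HFD libraries for 9 of 10 genes, and Psmb10 follows the rest least.

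Most members moved together from library to library, and less closely within groups. Over the 12 libraries, which include the differences between groups, the 45 pairs of members had a median Pearson r of 0.66 (range -0.10 to 0.94). Of deviations from the group means the median r was 0.58 (range -0.235 to 0.908). These are descriptions over libraries that share depth and cell composition. H2-K1 and B2m were among the closest pairs (r = 0.94, and 0.87 within groups). Psmb9 had a median r with the other members of 0.68, and of 0.36 within groups. Psmb10 was the least like the others, with a median r of 0.18, and of 0.05 within groups. In miR-146a-/- HFD replicate 1 it was at 70.5 FPKM, its highest level, while Tapbp in that library was at 60.7, the lowest of its group.

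The 5 genes outside the pathway lists whose level was most like the mean standardised level of the members, by Pearson r over the 12 libraries, were Tbc1d10c (0.92), Serpina3g (0.91), Gbp2 (0.90), Ltb (0.89) and Ppm1j (0.87). Gbp2 encodes an interferon-inducible guanylate-binding protein, Serpina3g a serine protease inhibitor, and Ltb the cytokine lymphotoxin beta. None of the 5 was called between genotypes averaged over diets (limma adjusted p = 0.283 to 0.518).

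The RNA of each immunoproteasome subunit was compared with that of its constitutive counterpart within each library, as a log2 ratio of (FPKM + 1). Exchange of the protein subunits was not measured. The ratio of Psmb9 to Psmb6 was -1.86, -1.74 and -1.61 in the WT NCD libraries and -1.41, -1.40 and -1.49 in the miR-146a-/- NCD libraries, with no overlap, and -1.92, -1.81 and -1.66 against -1.77, -1.90 and -1.69 on HFD, with overlap. Psmb8 to Psmb5 was 1.69 ± 0.07 in WT NCD, 2.03 ± 0.18 in miR-146a-/- NCD, 1.68 ± 0.26 in WT HFD and 1.78 ± 0.25 in miR-146a-/- HFD (SD, n = 3). None of 6 tests of these ratios passed (exact permutation tests, two-sided, 400 arrangements of labels within the other factor, with a smallest possible p of 0.005). Between genotypes the differences were 0.22 for Psmb8 to Psmb5 (exact p = 0.105, adjusted over 6 tests 0.158), 0.16 for Psmb9 to Psmb6 (exact p = 0.075, adjusted 0.15) and -0.03 for Psmb10 to Psmb7 (exact p = 0.67, adjusted 0.67). Between diets Psmb9 to Psmb6 was lower on HFD by a difference of -0.21 (exact p = 0.04, adjusted 0.12), Psmb10 to Psmb7 was higher by 0.17 (exact p = 0.02, adjusted 0.12), and Psmb8 to Psmb5 had -0.13 (exact p = 0.29, adjusted 0.348). The constitutive subunits Psmb5, Psmb6 and Psmb7 themselves had log2 fold changes of -0.13 to 0.06 between genotypes on NCD and 0.01 to 0.16 on HFD, and limma called none of them in any comparison. The ratio of Psmb10 to Psmb7 between diets passed without miR-146a-/- HFD replicate 2.

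Other genes of the pathway were taken from lists, and few were called. Of 10 genes for peptide loading and trimming, including the chaperones Hspa5 and Calr, and of 10 for the proteasome activator and peptidases, including the proteasome assembly factor Pomp and the activator subunit Psme1, none passed in any of the 7 comparisons with limma. At an unadjusted p under 0.05 there were 1 and 1 of 10 on NCD and 2 and 1 of 10 on HFD between genotypes. Of all genes it was 6.68% on NCD and 17.5% on HFD. Of 19 other class I and class I-like heavy chains 16 were measured and 14 tested, and none was called. Between genotypes on NCD 12 of these 14 were above 0, against 54.4% of all genes, with a median log2 fold change of 0.24, and on HFD 7 of 14 were above 0, with a median of -0.0024. On each diet 2 of the 14 had an unadjusted p under 0.05, beside the same shares of all genes. H2-T23, a nonclassical heavy chain that presents leader peptides, was at 61.9 ± 2.97 FPKM in WT NCD and 74.9 ± 2.19 in miR-146a-/- NCD (SD, n = 3), and on HFD at 64.5 ± 15.4 and 58.8 ± 9.02. Fcgrt, the neonatal Fc receptor, was at 492 ± 11.1 and 473 ± 56.6 FPKM on NCD and at 561 ± 27.7 and 409 ± 117 on HFD (log2 fold change -0.50, limma adjusted p = 0.211). Heavy chains such as H2-Q10 and H2-Q7 share stretches with H2-K1 or H2-D1, and how far this affects their own reads was not tested.

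Among 18 genes that control class I transcription, Jak2, a kinase of the interferon gamma receptor, fell on HFD in WT ATMs from 54.1 ± 1.86 to 28.0 ± 1.04 FPKM (SD, n = 3), a log2 fold change of -0.93 (limma adjusted p = 0.00132). It also fell in miR-146a-/- ATMs, from 49.8 ± 6.62 to 31.8 ± 2.59 FPKM (-0.63, limma adjusted p = 0.0204). Irf8, an interferon regulatory factor of myeloid cells, fell on HFD averaged over genotypes (-0.39, limma adjusted p = 0.0481), and no gene of this list was called between genotypes. Irf1, a direct activator of class I genes, was at 157 ± 15.0 and 169.8 ± 10.6 FPKM in WT and miR-146a-/- ATMs on NCD. In the MHC class II list of 10 genes, H2-Oa and H2-Ob, which encode a modulator of class II peptide loading, fell on HFD in WT (-1.90 and -1.59, limma adjusted p = 0.000917 and 0.00331) and in miR-146a-/- ATMs (-1.54 and -1.23, limma adjusted p = 0.00577 and 0.0216). Between genotypes none of the class II genes was called, and their median was -0.05 on NCD and -0.26 on HFD. On HFD 2 of the 10 were above 0, against 46.6% of all genes, and 2 had an unadjusted p under 0.05, against 17.5% of all genes. The spread was wide in the miR-146a-/- HFD group, as for H2-Aa, at 3801 ± 1553 FPKM against 4291 ± 489 in WT HFD (SD, n = 3). Averaged over genotypes, H2-DMb2, a subunit of the class II peptide exchange factor, also fell on HFD (-0.73, limma adjusted p = 0.0221).

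Markers of some other cell types moved with the class I genes. The macrophage markers were high in all libraries, with Mrc1 at 440 FPKM or more, Csf1r at 428 or more and the F4/80 gene (Emr1) at 334 or more. The sum over 8 of 8 markers was 2340 to 2569 FPKM in WT NCD and 2474 to 2736 in miR-146a-/- NCD. On HFD it was 2983 to 3025 in WT and 2269 to 2908 in miR-146a-/- ATMs. WT HFD thus overlapped with neither WT NCD nor miR-146a-/- HFD. The lowest Mrc1 and Emr1 were in miR-146a-/- HFD replicate 1, where Itgam (255 FPKM) and Ptprc (330) were highest. The summed level of 12 of 12 markers of T and NK cells, which include Gzma, Nkg7 and Cd3g, was 67.2 to 126 FPKM in WT NCD, 135 to 222 in miR-146a-/- NCD, 49.8 to 110 in WT HFD, while the miR-146a-/- HFD libraries had 20.4 to 139. On NCD these groups did not overlap, and within WT HFD replicate 3 had 110 against 51.9 and 49.8 in replicates 1 and 2. Ifng, which encodes interferon gamma, was picked from these 12 after its values were seen. It was at 5.45, 3.80 and 6.57 FPKM in WT NCD, 11.6, 6.80 and 11.3 in miR-146a-/- NCD, 2.84, 1.96 and 8.12 in WT HFD and 1.33, 2.29 and 7.65 in miR-146a-/- HFD. It was thus higher in every miR-146a-/- NCD library than in any WT NCD library, and highest of the WT HFD group in replicate 3. The NCD groups did not overlap for Nkg7, Ncr1, Gzma and Gzmb either, but they overlapped for Cd3d, Cd3e, Cd3g, Cd8a, Cd4, Trac and Klrb1c. In miR-146a-/- HFD replicate 1, Ifng (1.33 FPKM) and the sum of these markers (20.4) were the lowest of all libraries. The mean standardised level of the class I members in that library was 0.07, near the mean of all libraries, but the members differed. That library was the lowest of its group for 6 of the 10 members. It was the highest for 2, H2-D1 (948 FPKM) and Psmb10 (70.5). None of the markers of T and NK cells was listed at 0.

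The B cell markers, with 4 of 5 measured and Pax5 not analysed here, summed to 12.3 to 18.3 FPKM in WT NCD, 22.8 to 29.2 in miR-146a-/- NCD, 12.3 to 24.4 in WT HFD (24.4 in replicate 3) and 13.7 to 31.0 in miR-146a-/- HFD. The 9 neutrophil markers summed to 108 to 145 FPKM in WT NCD, 564 to 1612 in miR-146a-/- NCD, 51.0 to 68.7 in WT HFD, while the miR-146a-/- HFD libraries had 498 to 18930. The highest of these sums was in miR-146a-/- HFD replicate 1. There the mean standardised level of the 10 members was 0.07, with 6 members the lowest and 2 the highest of their group. The neutrophil granule markers Camp, Ngp, Mpo and Elane were listed at 0 in at least 1 library. Markers of endothelial cells (3.37 to 5.74 FPKM in WT NCD, 9.33 to 16.2 in miR-146a-/- NCD) and of mesothelial cells (2.74 to 6.58 and 6.84 to 14.7) did not overlap on NCD either. On HFD the endothelial sums did not overlap (3.82 to 4.94 FPKM in WT, 6.60 to 20.8 in miR-146a-/-), and the mesothelial sums did. In miR-146a-/- HFD replicate 1 the endothelial sum of 20.8 FPKM was mostly Pecam1 (19.0), so this sum rests largely on 1 gene there. The summed level of the dendritic cell markers, most of it from Cd209a (mean 206 FPKM), was lower in miR-146a-/- ATMs. It was 318 to 354 FPKM in WT NCD and 237 to 287 in miR-146a-/- NCD, and 224 to 259.9 and 75.9 to 136 on HFD. Cd209a and Siglech were lower in miR-146a-/- ATMs on HFD, but 3 other markers of this list were higher there with no overlap. These were Flt3 (1.53 to 1.77 FPKM in WT HFD, 2.12 to 2.67 in miR-146a-/- HFD), Clec9a (1.25 to 1.64 and 2.00 to 2.75) and Itgae (0.15 to 0.27 and 0.34 to 0.69). Mast cell, fibroblast and adipocyte markers overlapped between the NCD groups. Over the 12 libraries the mean standardised level of the members had a Pearson r of 0.64 with the log2 of the T and NK cell sum (FPKM + 1), 0.70 with the B cell sum, 0.76 with the mesothelial sum, 0.51 with the neutrophil sum and -0.34 with the macrophage sum on the same scale. It was 0.56 for endothelial cells, 0.50 for adipocytes, 0.29 for mast cells, 0.16 for fibroblasts and -0.19 for dendritic cells, all given as a description without a test. The part of these cell types in the class I values was not tested. In these pooled, sorted cells a different mix of cells and a different level of RNA per cell cannot be told apart.

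**Figure D4:**
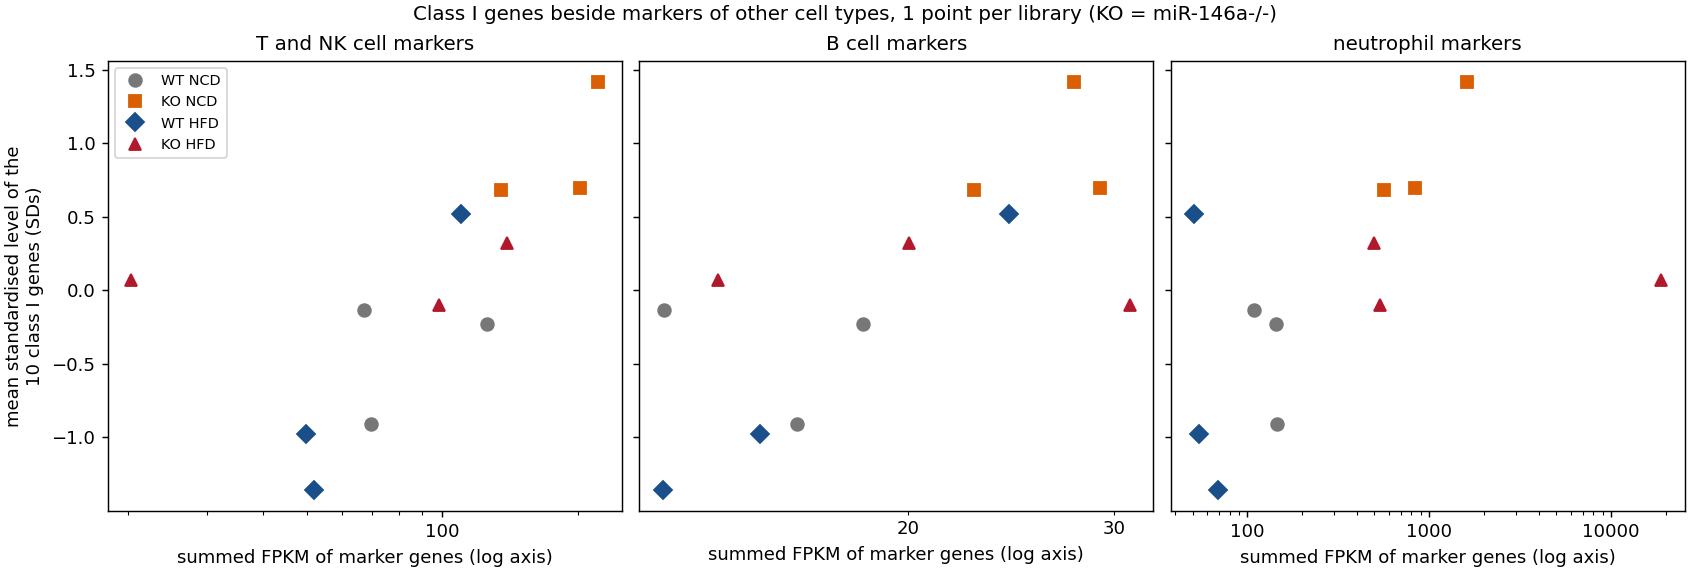
Mean standardised level of the 10 class I presentation genes (vertical axis, SDs) against the summed FPKM of markers of T and NK cells, B cells and neutrophils (horizontal axes, log scale), 1 point per library. The miR-146a-/- NCD libraries (orange squares) are highest in class I level and, with T and NK cell sums of 135 to 222 FPKM, lie to the right of the WT NCD libraries (grey circles, 67.2 to 126).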

How the data were processed

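RNA-seq was performed on sorted ATMs, and p-values measure the spread between pools of 3 mice. The authors deposited FPKM per gene in each library, with gene length in base pairs as a further deposited column. Multiplied by length and library total, all 184716 values gave whole reads within 1e-06. The total of each library was taken from its smallest value, so whole reads would also result if libraries had been scaled. These reads summed to 9992178 to 11552202 per library, close to the totals (9998868 to 11559282), which leaves little room for scaling beyond depth. Depth differed little between libraries. The submitters' processing notes name mm10, Novoalign and DESeq2, whose roles and versions are not given in the sources used here. Gene starts in the table count from 0 and were raised by 1.

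Libraries were grouped by their labels. Expression was analysed as log2(FPKM + 1), which shrinks the change of low genes, with limma 3.58.1 (R 4.3.3, statmod 1.5.0; mean trend and robust estimate) on the 12119 genes that averaged 1 FPKM or more, with a mean per group. The 7 contrasts each had their p-values adjusted after Benjamini and Hochberg and called under 0.05. Library quality weights, limma voom, other scalings, filters and pseudocounts, the replicate number as a block and each library left out in turn were alternatives. Scripts were tested on simulated data. The genes named were all members, the genes of each list that passed (at most 3 per comparison), otherwise the 2 most abundant of a list, the 5 most similar genes and the 3 most abundant markers of a cell type, with exceptions stated. The members and lists were chosen with earlier results of these data known. Motifs and shared stretches were found in RefSeq promoters and GENCODE M21 transcripts. Python 3.11.15, numpy 2.4.6, pandas 2.3.3, scipy 1.17.1 and matplotlib 3.10.9 were used.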

Additional observations from a re-analysis of the deposited data

How the results depend on the processing

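In the main analysis 0 members were called in each of the 7 comparisons. With weights for library quality 1 member was called for HFD against NCD in miR-146a-/- ATMs, 3 for genotype averaged over diets and 3 for diet averaged over genotypes. The other fits that kept all libraries called 0. With each library left out in turn the count was 0 in 6 comparisons and 0 to 1 for diet averaged over genotypes (Tap1, without WT HFD replicate 3). Counts over all genes varied more: between genotypes on NCD 15 genes were called, 66 with weights and 57 with only the groups compared, and on HFD 76, 594 and 6, with 48 after quantile normalization, 44 without trend and robust estimate and 121 with limma voom. Between diets 361, 1588 and 755 were called in WT and 92, 706 and 2 in miR-146a-/- ATMs, with 52 of the latter at a mean of at least 5 FPKM. For the difference between diets 0 genes were called, and 42 with weights. Without miR-146a-/- HFD replicate 1, 54 genes were called between genotypes on NCD, 1185 between diets in WT, 198 in miR-146a-/- ATMs, 137 for genotype averaged over diets and 1187 for diet averaged over genotypes, and 0 members in each. On NCD all 10 members kept a positive sign in every fit.

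Signs turned for small estimates. On HFD between genotypes, Tap2 became 0.00034 with a pseudocount of 0.1, 0.037 with median-ratio scaling, 0.036 with weights for library quality and 0.0033 with limma voom, Psmb10 became 0.024 with median-ratio scaling, and Tapbp became -0.016 with quantile normalization. Between diets, Tapbp in WT became 0.015 with quantile normalization, Psmb10 in miR-146a-/- ATMs 0.040 with median-ratio scaling, and H2-D1 in miR-146a-/- ATMs -0.0017 with weights. Averaged over genotypes, weights gave -0.065 for H2-D1, -0.031 for Psmb10 and -0.0043 for Nlrc5. For the difference between diets, B2m became 0.14 with quantile normalization and 0.073 with weights, H2-K1 0.00745 and Tapbp 0.024 with weights. The cause of these changes was not tested.

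Leaving out libraries in turn gave ranges that crossed 0. Between genotypes on HFD these were -0.087 to 0.087 for Tap2, -0.0060 to 0.13 for Tapbp and -0.14 to 0.058 for Psmb10. In WT between diets they were -0.19 to 0.11 for H2-K1, -0.16 to 0.073 for H2-D1, -0.21 to 0.10 for B2m, -0.15 to 0.021 for Tap2 and -0.11 to 0.036 for Tapbp, and in miR-146a-/- ATMs -0.14 to 0.049 for Psmb10. For the difference between diets they were -0.23 to 0.070 for H2-K1, -0.016 to 0.22 for H2-D1, -0.21 to 0.094 for B2m and -0.14 to 0.0051 for Tapbp. Averaged, they were -0.016 to 0.080 for Psmb10 between genotypes and -0.051 to 0.066 for H2-D1, -0.026 to 0.071 for Psmb10 and -0.046 to 0.084 for Nlrc5 between diets. The log2 ratio of Psmb10 to Psmb7 ranged from -0.071 to 0.0032 between genotypes and from 0.13 to 0.21 between diets, and the latter passed without miR-146a-/- HFD replicate 2 (exact permutation test, adjusted p = 0.03).

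Same-numbered libraries did not deviate together (18 pairs, r of -0.05 to 0.12, median 0.03), so the numbers were not taken as pairing. With the replicate number as a block, 0 members were called in each comparison and none of 77 results changed its sign or its side of the threshold. With 3 libraries a group, differences of the size of the members' (0.10 to 0.54 on NCD) had standard errors of 0.09 to 0.15.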
